A study of Mus musculus with 32 samples.

Results

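The genes described here encode the T-cell receptor, the CD3 chains that carry its signal, and the coreceptors CD4 and CD8, as measured by RNA sequencing of whole mouse bladders. They were taken by symbol from a table of read counts per gene: Cd3d, Cd3e, Cd3g, Cd4, Cd8a, Cd8b1, Trac, Trbc1, Trbc2 and Trdc, 10 of the 32285 genes in the table. All 10 were found. The bladders came from female C57BL/6 mice, and each of the 32 libraries was made from 1 bladder.

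Young mice were 2 months old (6 bladders), middle-aged mice were 10 months old (5 bladders) and old mice were 26 months old. These 3 groups were untreated. Old mice made up 3 further groups that were dosed by oral gavage on 3 days of each month from 21 to 26 months of age. The water-treated group (5 bladders) received water. The vehicle-treated group (4 bladders) received the solvent of the drugs, made of Phosal 50 PG (60%), ethanol (10%) and polyethylene glycol 400 (30%). The D + Q-treated group (6 bladders) received dasatinib at 5 mg/kg/day and quercetin at 50 mg/kg/day, a pair of drugs used to remove senescent cells. The untreated old group (6 bladders) was not gavaged, so gavage and compound can be told apart only through the water-treated and vehicle-treated groups. No group carried an engineered allele. The age comparisons asked how the bladder transcriptome changes over the lifespan, and the treatment comparisons asked what D + Q changes in old bladders. No label tied bladders to litters, cages or days.

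The T-cell receptor is a pair of chains, either alpha with beta or gamma with delta. Each chain joins a variable segment, chosen by recombination in the thymus, to a constant segment. Trac, Trbc1, Trbc2 and Trdc encode the constant segments of the alpha, beta and delta chains. The chains have almost no tail inside the cell, and the CD3 gamma, delta and epsilon chains (Cd3g, Cd3d and Cd3e) bring the receptor to the surface and carry the motifs that are phosphorylated when it binds. CD4 and CD8, the latter a dimer of the products of Cd8a and Cd8b1, bind class II and class I MHC molecules and bring the kinase LCK to the receptor. Cd4 and Cd8a are also expressed by subsets of dendritic cells, and Cd4 by some macrophages, so these transcripts are less specific to T cells than those of CD3 or the receptor. In a whole organ, more T cells and more RNA per T cell cannot be told apart.

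The genes lie in clusters of the GRCm38 build. Cd3g, Cd3d and Cd3e fall within 40056 bases of chromosome 9. Cd3g (chr9:44969572-44980431, minus strand) and Cd3d (chr9:44981786-44987339, plus strand) are transcribed away from each other from starts 1355 bases apart, and Cd3e lies at chr9:44998740-45009627 on the minus strand. The intervals of sequence just upstream of these 3 genes and of Cd8a are shown because these genes rose together in old bladders. Among the RefSeq (GRCm38.p6) upstream sequences at hand, 4 of the 10 genes were matched. Each sequence below runs 5′ to 3′ over the 250 bases before the start of the gene in RefSeq: chr9:44981536-44981785 for Cd3d (plus strand), chr9:44980432-44980681 for Cd3g (minus), chr9:45009612-45009861 for Cd3e (minus) and chr6:71373177-71373426 for Cd8a (plus). For Cd3e this start lies inside the interval of the gene given above, so that the last 16 bases of its sequence fall within the gene, while the other sequences end next to theirs. Capitals mark the E-box letters CANNTG and the GATA letters AGATAA, read on both strands.
Cd3d: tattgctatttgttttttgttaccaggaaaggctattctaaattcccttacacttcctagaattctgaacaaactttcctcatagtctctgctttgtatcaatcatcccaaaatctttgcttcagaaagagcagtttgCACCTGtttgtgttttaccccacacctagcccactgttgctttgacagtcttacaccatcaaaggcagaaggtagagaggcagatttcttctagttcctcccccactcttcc
Cd3g: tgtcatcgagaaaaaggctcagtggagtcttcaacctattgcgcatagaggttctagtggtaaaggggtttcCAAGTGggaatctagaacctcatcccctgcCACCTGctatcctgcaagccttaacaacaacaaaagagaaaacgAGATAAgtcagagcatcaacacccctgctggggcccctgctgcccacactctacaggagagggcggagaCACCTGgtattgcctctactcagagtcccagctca
Cd3e: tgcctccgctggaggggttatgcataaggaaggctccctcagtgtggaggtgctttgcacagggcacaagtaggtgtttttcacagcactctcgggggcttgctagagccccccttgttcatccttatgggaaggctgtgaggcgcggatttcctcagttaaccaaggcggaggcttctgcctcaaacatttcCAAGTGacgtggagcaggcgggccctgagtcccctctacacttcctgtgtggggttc
Cd8a: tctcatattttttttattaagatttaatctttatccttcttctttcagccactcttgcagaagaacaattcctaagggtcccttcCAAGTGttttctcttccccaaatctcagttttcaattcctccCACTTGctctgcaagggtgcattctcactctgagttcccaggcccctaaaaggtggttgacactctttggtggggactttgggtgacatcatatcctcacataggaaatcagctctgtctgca
E-box letters, the kind of site bound by E proteins in lymphocytes, occurred in all 4 sequences, with 3 matches before Cd3g, 2 before Cd8a and 1 each before Cd3d and Cd3e. They also occurred in 66.2% of all 32851 upstream sequences of the same length. GATA letters occurred only before Cd3g among these 4, and in 9.99% of all. The letters TATAAA, the RUNX letters TGTGGT and the ETS letters CCGGAA were found in none of the 4, and in 12.4%, 14% and 12% of all upstream sequences. No match overlapped another. Only these exact letters were searched, so other forms of these sites may be present.

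Trbc1 (chr6:41538218-41539881) and Trbc2 (chr6:41546730-41548352) lie 6849 bases apart on the plus strand. Their coding sequences are shown because they are nearly the same, and reads from one can be placed on the other or be discarded. The first exon is 375 bases long in both, and differs by the single substitution C260A, counted from the first base of the transcript with the Trbc1 base first. Over the 518 coding bases compared, 23 differed (95.6% identity), and 22 of these lay in the 143 bases after exon 1. Bases 242 to 518 of the transcripts follow, with the differing bases in capitals.
Trbc1: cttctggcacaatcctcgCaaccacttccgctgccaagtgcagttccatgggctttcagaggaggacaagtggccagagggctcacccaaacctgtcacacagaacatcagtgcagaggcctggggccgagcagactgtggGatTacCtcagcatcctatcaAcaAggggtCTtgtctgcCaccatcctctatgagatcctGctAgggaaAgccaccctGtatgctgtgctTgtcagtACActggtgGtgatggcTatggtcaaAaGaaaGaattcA
Trbc2: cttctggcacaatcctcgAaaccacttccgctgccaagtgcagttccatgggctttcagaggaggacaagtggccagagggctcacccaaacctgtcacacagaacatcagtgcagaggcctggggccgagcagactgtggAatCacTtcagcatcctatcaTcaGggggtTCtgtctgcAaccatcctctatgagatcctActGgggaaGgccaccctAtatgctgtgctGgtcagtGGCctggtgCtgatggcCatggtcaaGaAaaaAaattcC
Of all stretches of 75 bases in the Trbc1 transcript, 35.1% occur letter for letter in Trbc2, and 37.7% of those of Trbc2 occur in Trbc1. The split between these genes is therefore uncertain, and it was unknown how the counting treated reads with more than 1 placement. Cd8b1 (chr6:71322788-71337494) and Cd8a (chr6:71373427-71379173) lie 35933 bases apart on the plus strand, and Cd4 is at chr6:124864692-124888221 on the minus strand. Trdc (chr14:54142851-54148868) and Trac (chr14:54220521-54224206) lie 71653 bases apart on the plus strand of chromosome 14. Cd3e overlaps the antisense gene Gm48719, and Trdc overlaps the antisense gene Gm43434 and the variable segment Trdv5 on the other strand. The libraries kept strand, but the strand setting of the counting was not given in the sources used here, so reads of these overlapping genes may be mixed.

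Total counts ran from 15088372 to 52650259 per bladder, and the 2 shallowest libraries were young. Levels below are read counts relative to library size (CPM), with library sizes adjusted by TMM, a normalization that sets the bulk of genes equal between libraries. A count of 3 in a library corresponded to between 0.057 and 0.199 CPM by total counts, before the TMM adjustment. These limits cover counting error only. Bladder identity was plain in every library: the summed level of 6 urothelial genes lay between 3513 and 4714 CPM and that of 5 smooth muscle genes between 23436 and 38059 CPM. The summed level of the 10 T-cell genes was far smaller, with a lowest value of 10.5 and a highest of 108 CPM.

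All 10 genes were detected in young and middle-aged bladders, but at few reads. The lowest count was 1, for Cd8b1 in a young bladder, and Cd8b1 gave 1 to 13 reads in the young and 6 to 12 in the middle-aged. On a scale per gene length (TPM, reads per base of exon scaled to a fixed total), Trbc2 led in both groups, with means of 7.62 in young and 8.50 in middle-aged bladders, followed by Trbc1 (6.02 and 5.78). Cd4 came next, at 4.37 and 4.22 TPM, close to Trac at 4.30 and 4.22 TPM. The CD3 genes lay below Cd4, between 0.765 and 2.13 TPM, and Cd8a and Cd8b1 were lowest, between 0.554 and 0.661 TPM. In untreated old bladders the order per length changed: Trbc2 (48.2 TPM), Trac (32.1 TPM) and Trbc1 (29.8 TPM) led by a wide margin over Cd4 (12.2 TPM), and Trdc, at 2.47 TPM, moved to the bottom. No test was made between genes. Across the 6 groups, the mean CPM was highest in untreated old bladders for 9 of the 10 genes and in water-treated bladders (4.23 ± 1.97 CPM) for Trdc. The 3 treated old groups were close to each other: Cd3e, for example, had means of 4.70 ± 1.31 CPM with water, 5.21 ± 2.99 CPM with vehicle and 4.98 ± 1.04 CPM with D + Q, differences within the spread of each group.

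**Figure D1:**
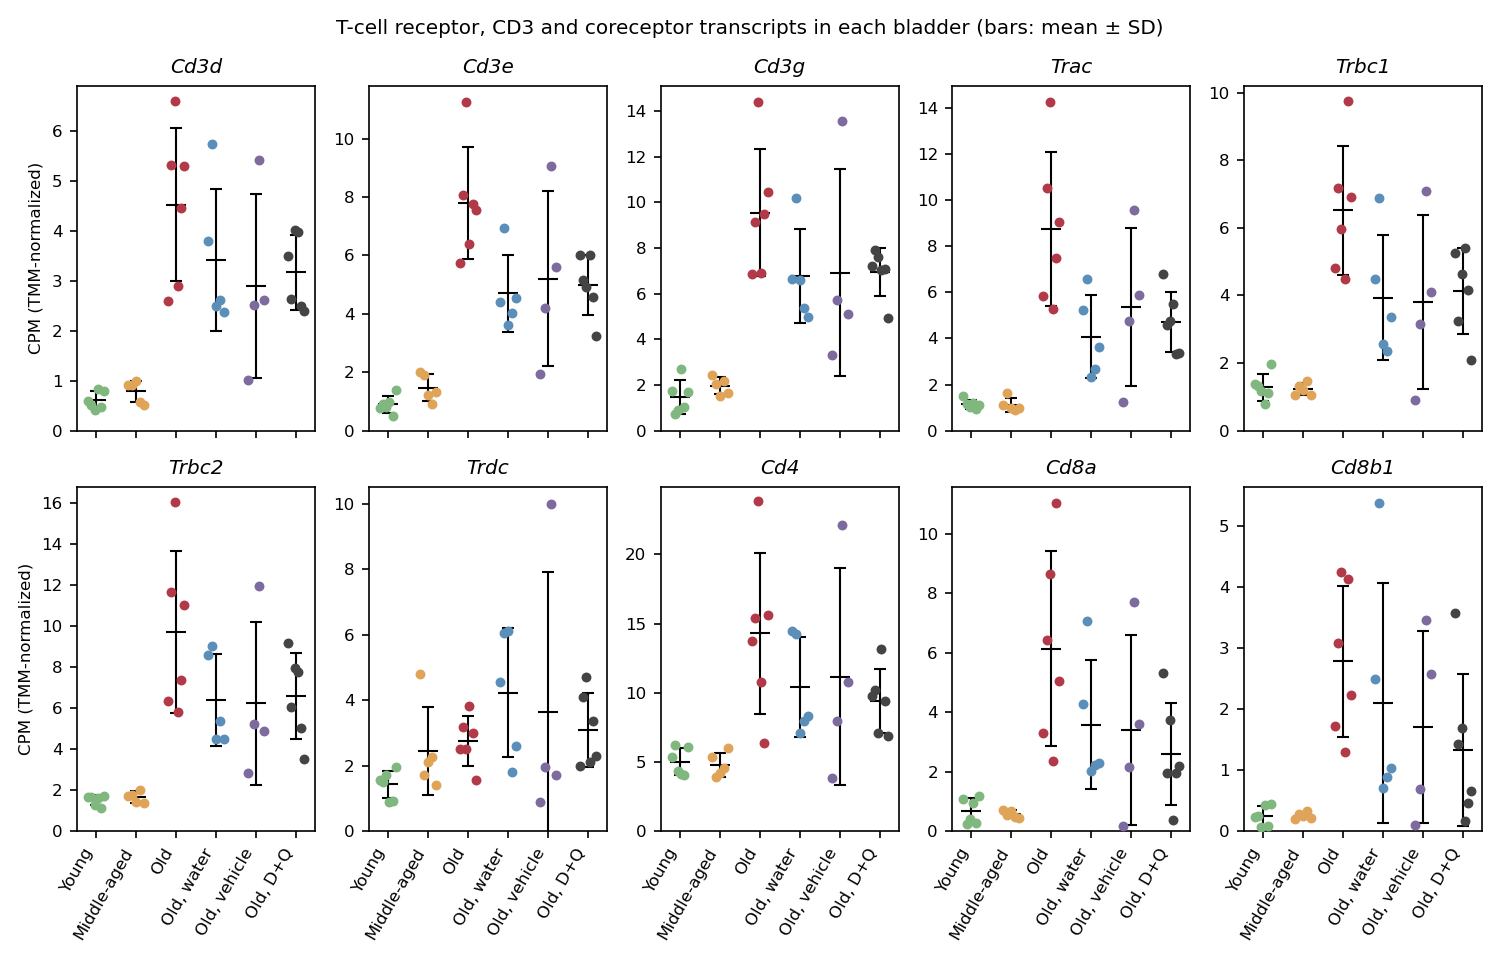
Level of each gene in every bladder, as TMM-scaled CPM on a linear axis from 0, by group; points are bladders and bars are the mean ± SD (the lower bar for Trdc in the vehicle-treated group passes below 0). For 9 genes every untreated old bladder lies above every middle-aged bladder; for Trdc the groups overlap, with 1 vehicle-treated bladder at 10.0 CPM.

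Between middle age and old age 9 of the 10 genes rose, by 2.97-fold to 10.8-fold, and Trdc did not pass the test (edgeR quasi-likelihood, Benjamini-Hochberg adjusted over 17156 genes). Of all genes tested, 13.0% were called higher and 24.0% were called in either direction. The median of their log2 fold changes was 2.48, against -0.0047 over all genes tested. For these 9 genes no untreated old bladder overlapped any middle-aged bladder, which held for 14.6% of all genes.

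Cd3e, which with CD3 delta or CD3 gamma forms the dimers of the complex, stood at 1.99, 1.90, 1.20, 0.915 and 1.33 CPM in the 5 middle-aged bladders. In the 6 untreated old bladders its lowest, median and highest levels were 5.75, 7.66 and 11.3 CPM. The lowest old bladder was thus well above the highest middle-aged one. Cd3e rose 5.33-fold (log2 2.42 ± 0.22 SE, adjusted p = 1.26e-05). Cd3d, from a mean of 0.783 ± 0.217 to 4.53 ± 1.54 CPM (SD, n = 5 and 6), rose 5.80-fold, and Cd3g, from 1.97 ± 0.387 to 9.55 ± 2.79 CPM, rose 4.85-fold. The 3 CD3 genes thus shared a rise of similar size, with 95% intervals of log2 1.94 to 3.13 for Cd3d, 1.94 to 2.89 for Cd3e and 1.83 to 2.72 for Cd3g.

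Among the receptor chains, Trac rose most. Its level was 1.11, 1.62, 0.958, 0.887 and 0.977 CPM in the middle-aged bladders, and 5.27, 8.28 and 14.3 CPM as the lowest, median and highest in the untreated old. That was a 7.90-fold rise (log2 2.98 ± 0.28, adjusted p = 1.41e-05), with a gap between the groups. The beta constant genes moved alike: Trbc1 rose 5.33-fold, from 1.22 ± 0.182 to 6.52 ± 1.92 CPM, and Trbc2 rose 5.85-fold, from 1.66 ± 0.273 to 9.72 ± 3.95 CPM. The ratio of Trbc2 to Trbc1 in TPM had a geometric mean of 1.47 in middle-aged and 1.56 in untreated old bladders, and it was not shown to differ (log2 difference 0.09, two-sided exact permutation test, p = 0.736, adjusted p = 0.889 over the 18 exact tests run). In the untreated old group this ratio ran from 0.819 to 2.92, a wider spread than the 1.28 to 1.79 of the middle-aged.

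The CD8 genes showed the biggest fitted changes of the 10. Cd8a was at 0.718, 0.539, 0.684, 0.471 and 0.434 CPM in middle-aged bladders, from 16 to 25 reads each. In the untreated old bladders its lowest, median and highest levels were 2.35, 5.74 and 11.04 CPM, from 83 to 455 reads. All old values exceeded all middle-aged values, though the old bladders spread widely among themselves (coefficient of variation 53.6%). Cd8a rose 10.8-fold (95% interval of log2 2.57 to 4.29, adjusted p = 7.26e-05) and Cd8b1, which pairs with it on conventional CD8 T cells, rose 10.7-fold, from 0.255 ± 0.0547 to 2.79 ± 1.24 CPM. The ratio of Cd8b1 to Cd8a in TPM stayed near 1, with geometric means of 1.10 in middle-aged and 1.16 in untreated old bladders (log2 difference 0.08, exact permutation test, p = 0.749, adjusted p = 0.889).

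Cd4 rose least among the 9 genes. It was already at 5.38, 3.93, 4.19, 4.55 and 6.00 CPM in middle-aged bladders, and its lowest, median and highest levels in the untreated old were 6.33, 14.6 and 23.9 CPM. The groups did not overlap, but the lowest old bladder lay close to the highest middle-aged one. The rise was 2.97-fold (log2 1.57 ± 0.27, 95% interval 0.99 to 2.15, adjusted p = 0.00112), and this interval ended below those of Cd8a and Cd8b1. Of 8 macrophage and monocyte genes 6 also rose in this comparison, where 13.0% of all genes were called higher. The summed level of the 8 went from 388 to 454 CPM in middle-aged to 527 to 864 CPM in untreated old bladders. Of 7 dendritic cell genes 4 rose, with sums of 29.8 to 36.5 and 38.2 to 50.8 CPM. None of these genes was at 0 in every bladder of a group, and their part in the Cd4 and Cd8a levels was not tested.

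Against young bladders all 10 genes were higher in the untreated old, where 12.6% of all 16873 genes tested were called higher and 25.1% in either direction. Cd3e had the smallest adjusted p (1.47e-06), with a rise of 8.71-fold from 0.895 ± 0.293 CPM (n = 6) to 7.80 ± 1.91 CPM (n = 6). Cd3d (7.48-fold), Cd3g (6.69-fold), Trac (7.59-fold), Trbc1 (4.98-fold), Trbc2 (6.42-fold), Cd8a (8.99-fold), Cd8b1 (11-fold) and Cd4 (2.82-fold) rose in the same way. Trdc rose 1.93-fold (log2 0.95 ± 0.24, adjusted p = 0.00951), and it was the single gene of the 10 whose groups overlapped (12.7% of all genes had no overlap). With all 6 groups in one fit Trdc no longer passed the test (log2 0.95, adjusted p = 0.103). This comparison and the one with middle-aged bladders share the same 6 untreated old bladders.

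Between youth and middle age no call was made. Of the 10 genes 9 had enough reads to be tested and Cd8b1 did not, and 0 of 9 passed, where 10.8% of 16754 genes did in either direction (2 of the 9, Cd3e and Trdc, had an unadjusted p under 0.05, as did 27.2% of all genes, and DESeq2 called 0 of the 9 and 16.9% of all genes). Cd3e averaged 0.895 ± 0.293 CPM in the young group and 1.47 ± 0.462 CPM in the middle-aged (log2 0.72, adjusted p = 0.101). Trdc averaged 1.43 ± 0.423 and 2.46 ± 1.35 CPM (log2 0.79, adjusted p = 0.12). For the other genes the 95% intervals of the log2 fold change held 0, with Cd4 (-0.39 to 0.27) and Trbc2 (-0.21 to 0.50) the tightest and Cd8a (-1.13 to 0.63) the widest.

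**Figure D2:**
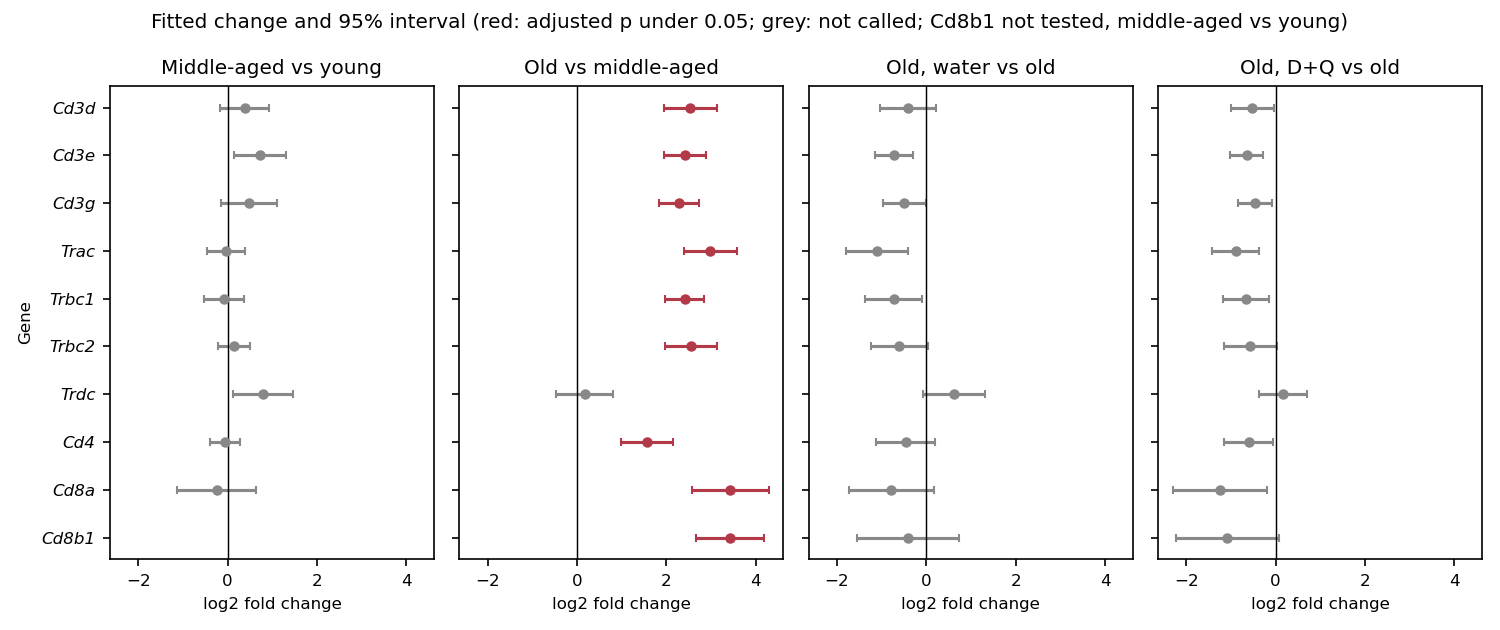
Fitted log2 fold change of each gene with its 95% interval, from left to right for middle-aged against young, old against middle-aged, water-treated against untreated old and D + Q-treated against untreated old; red marks adjusted p under 0.05 and grey marks no call. The rise between middle-aged and old bladders runs from log2 1.57 (Cd4) to 3.43 (Cd8a), Trdc sits at 0.17, and in the comparison of D + Q with no treatment 9 of 10 points lie below 0 with no call.

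The ratio of Cd4 to Cd8a transcripts fell in old bladders. In TPM it was 6.68, 6.48, 5.45, 8.53 and 12.2 in the 5 middle-aged bladders. In the 6 untreated old bladders it was 0.518 at the lowest, 2.63 at the median and 4.12 at the highest. Every old bladder thus lay below every middle-aged one, and in 1 old bladder Cd8a exceeded Cd4. The geometric mean went from 7.55 to 2.22, a 3.40-fold lower ratio (mean log2 2.92 ± 0.450 and 1.15 ± 1.09, SD, two-sided exact permutation test, p = 0.00433, the smallest these groups can give, adjusted p = 0.0195). Young bladders ran from 3.86 to 21.9 with a geometric mean of 7.76, and here 1 old bladder reached into their range (log2 difference -1.81, exact permutation test, p = 0.00433, adjusted p = 0.0195). The young ratios rest on as few as 6 reads of Cd8a. Young and middle-aged bladders were not shown to differ (log2 difference -0.04, exact permutation test, p = 0.944).

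The geometric mean ratio of Cd4 to Cd8a in the treated old groups lay between those of untreated old and middle-aged bladders, at 2.83 with water, 4.60 with vehicle and 4.15 with D + Q. Water-treated bladders were at 3.04, 1.81, 3.13, 3.23 and 3.29, and vehicle-treated bladders at 19.4, 3.34, 2.58 and 2.69. D + Q-treated bladders ran from 1.65 to 32.0 with a median of 3.48. The highest vehicle-treated and D + Q-treated values came from bladders with 7 and 13 reads of Cd8a. No difference passed the test within the old bladders: D + Q-treated against untreated old gave log2 0.90 (exact permutation test, p = 0.342, adjusted p = 0.684), water-treated against untreated old 0.35 (p = 0.675), vehicle-treated against untreated old 1.05 (p = 0.314), D + Q-treated against vehicle-treated -0.15 (p = 0.924) and D + Q-treated against water-treated 0.55 (p = 0.571).

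**Figure D3:**
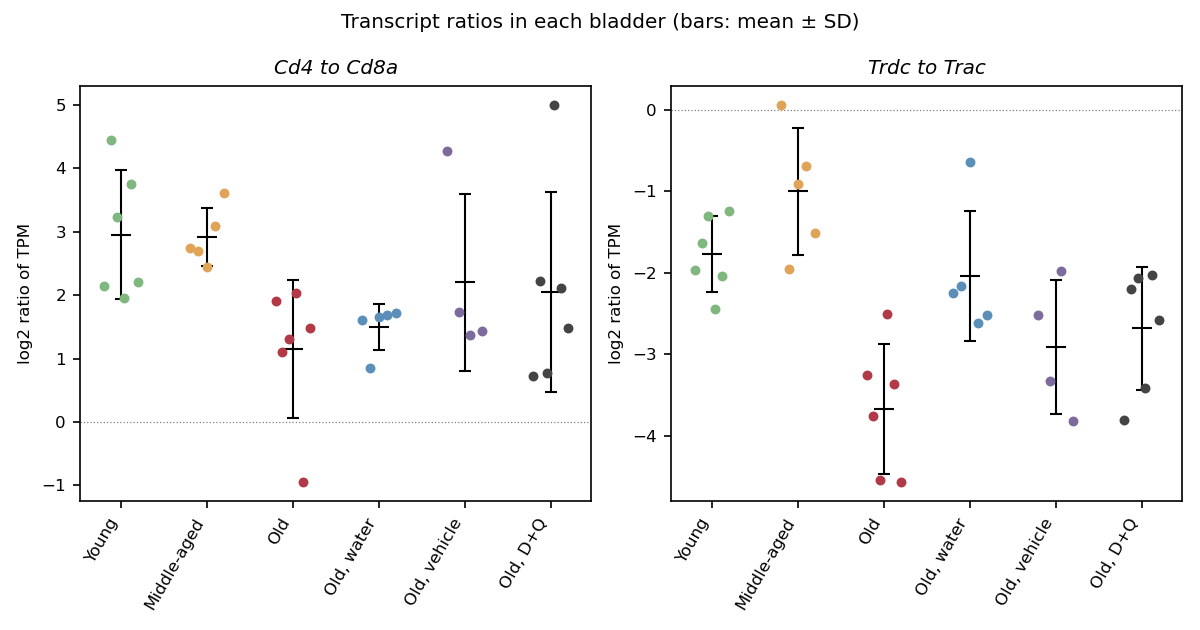
Log2 ratio of TPM of Cd4 to Cd8a (left) and of Trdc to Trac (right) in each bladder by group, with mean ± SD; a dotted line marks equal levels. In both panels the 6 untreated old bladders lie below the 5 middle-aged ones, with group means of 1.15 against 2.92 (left) and -3.67 against -0.999 (right).

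Trdc, the constant gene of the delta chain, did not follow the other genes. Its level was 4.79, 1.71, 2.11, 2.27 and 1.41 CPM in middle-aged bladders and 1.56, 2.75 and 3.83 CPM as the lowest, median and highest in the untreated old. The groups overlapped, and the log2 fold change of 0.17 had a 95% interval of -0.47 to 0.82 (adjusted p = 0.722). Since Trac rose, the ratio of Trdc to Trac in TPM dropped, from 1.05, 0.257, 0.534, 0.621 and 0.351 in middle-aged bladders to 0.042 at the lowest, 0.0843 at the median and 0.176 at the highest in the untreated old. The geometric means of 0.5002 and 0.0785 differed 6.37-fold with no overlap (exact permutation test, p = 0.00433, the smallest these groups can give, adjusted p = 0.0195). In young bladders the ratio ran from 0.183 to 0.425, also above every untreated old bladder.

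The constant genes of the gamma chain, the partner of delta, were looked at in the same way. Of 4 measured (Tcrg-C1 to Tcrg-C4), 3 had enough reads to be tested. Tcrg-C2 rose 4.19-fold between middle-aged and old bladders, from 0.865 ± 0.327 to 3.61 ± 1.65 CPM (adjusted p = 0.000584). Tcrg-C1 (2.40 and 3.28 CPM, log2 0.46, adjusted p = 0.128) and Tcrg-C4 (0.801 and 1.45 CPM, log2 0.87, adjusted p = 0.0531) did not pass. Against young bladders all 3 were higher (log2 1.20 to 2.83), where 12.6% of all genes were called higher. Gamma genes are also transcribed in some alpha-beta T cells, and paralogs of this family can share reads.

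Reads over variable segments were also counted. The table held 176 variable segments of the alpha (128), beta (35), delta (6) and gamma (7) loci. A segment was called detected at 0.2 CPM, at or above 3 counts in the shallowest library. This is a number of annotated genes with reads, not of clonotypes, since paralogous segments share reads. With a fixed limit the number also goes up as the summed level of the segments goes up. It is therefore not independent of the levels of Trac, Trbc1 and Trbc2. Middle-aged bladders had 4, 2, 2, 4 and 3 such segments, and untreated old bladders had from 11 to 18 with a median of 14.5. The groups were far apart (mean 3 ± 1 and 14.7 ± 2.73, exact permutation test, p = 0.00433, adjusted p = 0.0195). Summed over the 176 segments the level was 2.44 to 4.14 CPM in middle-aged and 7.99 to 14.9 CPM in untreated old bladders.

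The loci contributed unequally. Beta segments made up a mean of 9.17 of the 14.7 detected in untreated old bladders, at 6 to 12 per bladder against 0 or 1 in the middle-aged. Alpha segments, spread over many genes, summed to 1.13 to 3.51 CPM in untreated old and 0.098 to 0.222 CPM in middle-aged bladders, but few of them reached the limit singly. Gamma segments summed to 1.19 to 3.18 CPM in untreated old and 0.657 to 1.21 CPM in middle-aged bladders. Delta segments gave 0.724 to 1.64 CPM and 0.602 to 1.79 CPM. The groups thus overlapped narrowly for gamma segments and widely for delta segments, as they did for Trdc.

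Trdv4, a delta segment, was the leading segment by reads in 5 of 6 young and in 5 of 5 middle-aged bladders, where it took 22.5% to 50.0% of all variable-segment reads in those it led. Among untreated old bladders it led in 2 of 6. In the others the leading segments were Trgv2 in 2 bladders, Trbv13-2 in 1 and Trbv3 in 1. In that last bladder, untreated old replicate 3, Trbv3 alone had 120 reads, 25.9% of its variable-segment reads, and its level of 3.86 CPM compared with a group mean of 0.993 CPM. Trdv4 itself averaged 0.763, 0.954 and 1.06 CPM in the young, middle-aged and untreated old groups. Its mean in the vehicle-treated group, 1.35 CPM, was carried by vehicle-treated replicate 3 at 4.09 CPM, the bladder that also had the highest Trdc level. Trdv4 also led in other old bladders. These were water-treated replicates 2, 3 and 4, vehicle-treated replicates 2 and 3, and D + Q-treated replicates 2, 3, 5 and 6. The segment values were not tested singly.

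**Figure D4:**
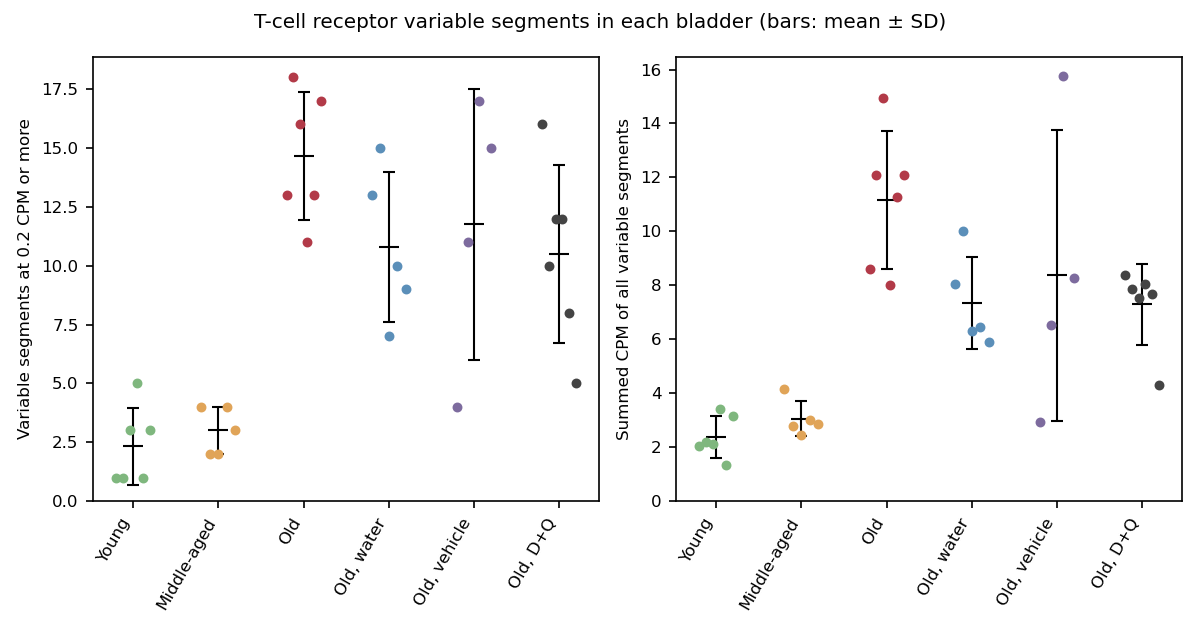
Number of T-cell receptor variable segments at 0.2 CPM or more (left) and the summed CPM of all 176 segments (right) in each bladder by group, with mean ± SD. Middle-aged bladders have 2 to 4 segments and untreated old bladders 11 to 18; the treated old groups run from 4 to 17.

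The signaling genes that act with the receptor rose with it. Of 33 listed kinases, adaptors and costimulatory receptors 32 were tested between middle-aged and old bladders, and 30 were higher and 0 lower. Of all genes, 13.0% were called higher in this comparison. The median log2 fold change of the 32 listed genes was 1.78. Malt1 (adjusted p = 0.0504) and Plcg1 (adjusted p = 0.0511) were the 2 without a call. Rasgrp1, which activates RAS after receptor binding, had the smallest p, and rose 3.70-fold from 3.93 to 14.6 CPM (log2 1.89 ± 0.09, adjusted p = 5.46e-07). Cd2, an adhesion receptor of T and NK cells, rose 7.65-fold from 1.12 to 8.63 CPM, and Grap2, an adaptor that links LAT to SLP-76, rose 2.64-fold from 6.72 to 17.7 CPM. Between young and middle-aged bladders 0 of 32 were higher and 2 lower, where 10.8% of all genes were called in either direction.

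Among 14 transcription factors of T-cell subsets 9 rose and 2 fell, where 24.0% of all genes were called in either direction, with a median log2 fold change of 0.54. With all 6 groups in one fit 7 of the 14 were called, where 1618 of 18093 genes were called higher and 901 lower. Bcl11b, which fixes T-cell identity, rose 3.31-fold from 2.18 to 7.23 CPM (adjusted p = 3.29e-06). Runx3, a factor of CD8 and cytotoxic cells, rose 3.60-fold from 2.93 to 10.5 CPM, and Bcl6, a factor of follicular helper T cells and germinal center B cells, rose 1.33-fold from 45.4 to 60.5 CPM. Gata3 (log2 -0.14, adjusted p = 0.0128) and Zbtb7b (log2 -0.12, adjusted p = 0.039) fell slightly from 197 to 179 and from 90.5 to 83.2 CPM. Both encode factors of CD4 T cells, and Gata3 is also a well-known urothelial gene. Their levels were many times those of the CD3 genes.

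Genes of recirculating and of resident T cells both rose, in a comparison where 13.0% of all genes were called higher. Of 6 genes of naive and recirculating cells 4 were higher (median log2 1.55): Il7r, the receptor for IL-7, rose 3.59-fold from 4.55 to 16.3 CPM, and Ly6c2 rose 9.17-fold from 0.824 to 7.54 CPM. Of 7 genes of tissue-resident cells 6 were higher (median log2 0.78). Cd69, which holds lymphocytes in tissue, rose 6.20-fold from 0.32 to 1.98 CPM, and the chemokine receptors Cxcr3 and Cxcr6 rose 4.04-fold and 2.76-fold. Neither set is particular to T cells. Of 5 thymocyte genes only Cd1d1, which non-thymic cells also express, had enough reads, and it rose 1.40-fold.

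Genes of other leukocytes moved in the same comparison, where 13.0% of all genes were called higher and 24.0% in either direction. Of 7 B-cell genes 6 rose, with a median log2 fold change of 4.43, and their summed level went from 4.40 to 10.1 CPM in middle-aged to 63.3 to 196 CPM in untreated old bladders. Ms4a1, which encodes CD20, rose 32.0-fold, from 0.778 to 25.6 CPM. Cd79a and Cd79b, the signal chains of the B-cell receptor, rose 22.5-fold and 13.2-fold. Of 5 plasma cell genes 4 rose, led by Mzb1 (23.6-fold) and Jchain (18.1-fold). Of 5 lymph node stroma genes 2 were tested and both rose: Cxcl13, a B-cell attracting chemokine, 5.04-fold from 3.46 to 17.6 CPM, and Glycam1, a mucin of lymph node vessels, from 0.125 to 3.68 CPM. Of 7 genes of NK and innate lymphoid cells 2 rose (Klrc1 and Il23r), 1 fell (Id2), and their median log2 fold change was -0.20. Of 6 urothelial genes 3 fell by small amounts (Upk3a by 0.19, Upk2 by 0.23 and Upk1a by 0.15 on the log2 scale), and of 5 smooth muscle genes 1 fell (Myh11, by 0.24). Of the other lymph node stroma genes, named here for their low values, Ccl21a had 0 reads in every middle-aged and untreated old bladder, Ccl19 had at most 17 reads and Madcam1 at most 7 in any untreated old bladder. Whether a lymph node or a lymphoid aggregate was included with any bladder was not tested.

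Within all leukocytes the CD3 share was compared through the ratio of Cd3e to Ptprc, the gene of the pan-leukocyte antigen CD45. In TPM it was 0.297, 0.292, 0.209, 0.156 and 0.227 in middle-aged bladders and 0.285, 0.396 and 0.523 as the lowest, median and highest in the untreated old. The groups overlapped narrowly, and the log2 difference was 0.77 (exact permutation test, p = 0.013, adjusted p = 0.0468). The call was lost with 0.1 in place of 0.01 added to the TPM values (log2 0.70, adjusted p = 0.0623) and on leaving out any of 10 of the 11 bladders in turn (log2 0.63 to 0.86). In young bladders the ratio ran from 0.0684 to 0.176.

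**Figure D5:**
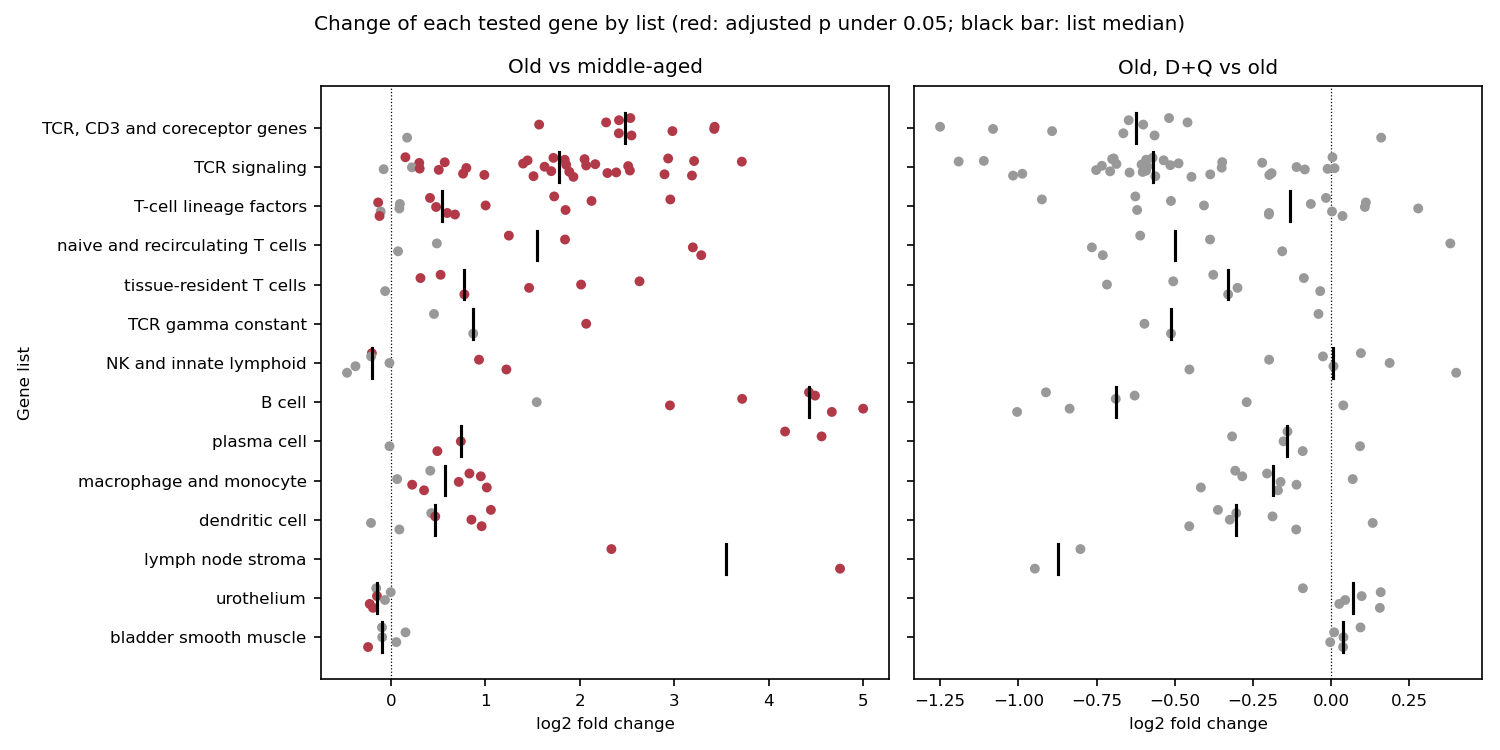
Log2 fold change of every tested gene in the T-cell genes described here and in 13 other gene lists, between untreated old and middle-aged bladders (left) and between old bladders with D + Q and without treatment (right); red points have adjusted p under 0.05 and black bars are list medians. On the left the medians are 2.48 (receptor, CD3 and coreceptor genes) and 1.78 (signaling); on the right no gene is called, and the same medians are -0.62 and -0.57.

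In old bladders given D + Q, levels of 9 of the 10 genes were lower on average than in untreated old bladders, but none passed the test (edgeR quasi-likelihood, adjusted p = 0.264 to 0.797), and 49.3% of all genes had a fold change below 0. No gene of the 17037 tested passed (0.00%). At an unadjusted p under 0.05, 7 of the 10 were lower, where 6.67% of all genes were. The median log2 fold change of the 10 was -0.62, against 0.002 over all genes. DESeq2 called 2 of the 10 lower, Cd3e and Trac, where it called 1.18% of 15684 genes in either direction.

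Trac was at 3.32, 4.67 and 6.80 CPM as the lowest, median and highest of the 6 D + Q-treated bladders and at 5.27, 8.28 and 14.3 CPM in the untreated old. The groups overlapped (log2 -0.89 ± 0.25, 95% interval -1.42 to -0.36, adjusted p = 0.269). Cd3e ran from 3.22 through a median of 5.04 to 6.01 CPM, against 5.75, 7.66 and 11.3 CPM (log2 -0.65 ± 0.17, adjusted p = 0.264). Cd8a ran from 0.361 through 2.08 to 5.32 CPM, against 2.35, 5.74 and 11.04 CPM (log2 -1.25, 95% interval -2.30 to -0.20, adjusted p = 0.339). Cd4 was at 9.41 ± 2.31 CPM against 14.3 ± 5.85 CPM (log2 -0.60, adjusted p = 0.362). Trdc had the opposite sign, at 3.09 ± 1.14 against 2.76 ± 0.766 CPM (log2 0.16, adjusted p = 0.797). The ratio of Trdc to Trac had a geometric mean of 0.156 in D + Q-treated and 0.0785 in untreated old bladders, with overlap (log2 difference 0.99, exact permutation test, p = 0.0693, adjusted p = 0.178). Its geometric mean was 0.244 with water (0.163 to 0.641) and 0.133 with vehicle (0.0707 to 0.253). Neither of these groups was tested for this ratio.

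Water gavage alone gave a similar picture. Against untreated old bladders 9 of the 10 genes had lower means in the water-treated group and none passed (adjusted p = 0.114 to 0.746), where 0.487% of 17250 genes were called higher and 0.516% lower, and 49.8% had a fold change below 0. The 4 genes of the 10 with an unadjusted p under 0.05 were Cd3e, Cd3g, Trac and Trbc1, all lower, where 16.0% of all genes had one in either direction. Trac was at 5.24, 6.57, 2.31, 2.68 and 3.62 CPM (log2 -1.10 ± 0.32, adjusted p = 0.127) and Cd3e at 4.39, 6.94, 3.60, 4.01 and 4.55 CPM (log2 -0.73 ± 0.20, adjusted p = 0.114). Water-treated replicate 2 was high for both, and without it Cd3e passed the test as the 1 gene of the 10 to do so. That fit called 106 of 17356 genes higher and 93 lower. DESeq2 called Cd3e and Trac lower with all 5 bladders, where it called 4.62% of 15219 genes in either direction. Trdc was again on the other side, at 4.55, 6.07, 6.10, 1.79 and 2.61 CPM (log2 0.61, adjusted p = 0.37). Over the 14 other lists, 1 gene was called, Bcl11b. It was lower in water-treated than in untreated old bladders (4.40 against 7.23 CPM, log2 -0.72 ± 0.14, adjusted p = 0.0361). In D + Q-treated bladders it was at 4.69 CPM (log2 -0.63 against untreated old, adjusted p = 0.246).

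The vehicle-treated group had the widest spread of the 6 groups for 9 of the 10 genes (coefficient of variation), with Cd8b1 the exception. Vehicle-treated replicate 3 had the highest level of the 4 for all 10 genes and replicate 1 the lowest for all 10, with Cd3e at 1.95, 4.18, 9.08 and 5.61 CPM, Cd4 at 3.83, 7.96, 22.1 and 10.8 CPM, and Cd8a at 0.169, 2.15, 7.71 and 3.62 CPM. It was 57.4% to 117% in this group, against 24.5% to 53.6% in the untreated old. No gene of the 10 passed between vehicle-treated and untreated old bladders (adjusted p = 0.632 to 0.849, 0.00% of 17440 genes called, 0 of 10 at an unadjusted p under 0.05 against 8.39% of all genes, DESeq2 0 of 10 and 0.942% of all genes). The fold change of Trdc turned on 1 bladder, from log2 0.41 to -0.87 without vehicle-treated replicate 3.

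With its own vehicle as the reference, D + Q treatment left no call either (0.00% of 17267 genes). The 10 log2 fold changes ran from -0.40 (Cd8a, 95% interval -2.08 to 1.27) to 0.12 (Cd3d, -0.68 to 0.92), with adjusted p from 0.994 to 0.999. The signs hung on single bladders. Without vehicle-treated replicate 3 the log2 fold change of Cd3e went from -0.07 to 0.36 and that of Trdc from -0.26 to 1.03. Without replicate 1 that of Cd3d went from 0.12 to -0.17. Against water-treated bladders the 10 values lay between -0.67 (Cd8b1) and 0.21 (Trac), with adjusted p from 0.779 to 0.984 (0.00% of 17161 genes called). None of the 10 had an unadjusted p under 0.05 in either comparison, where 4.18% of all genes did against vehicle and 7.82% against water, and DESeq2 called 0 of 10 in both, where it called 0.0665% and 0.437% of all genes. For Cd3g, the tightest, the 95% interval against water-treated bladders was -0.36 to 0.42. These comparisons, and those with untreated old bladders, share groups and are not independent.

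The number of variable segments was 10.5 ± 3.78 in D + Q-treated bladders (5 to 16) and 14.7 ± 2.73 in untreated old bladders (11 to 18), which overlap (exact permutation test, p = 0.0628, adjusted p = 0.178). With more than 3 counts as the limit, which unlike the CPM limit moves with depth, the difference was -7.67 segments and passed (adjusted p = 0.0234). Water-treated bladders had 13, 15, 7, 10 and 9 segments and vehicle-treated bladders 4, 11, 17 and 15.

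For signaling genes the D + Q comparison with untreated old bladders had a median log2 fold change of -0.57, with 31 of 33 below 0 and 0 called (25 with an unadjusted p under 0.05, against 12.9% of all genes). DESeq2 called 8 of 33, where it called 1.18% of all genes. Rasgrp1 did not overlap between the groups, at 8.93 and 14.6 CPM (log2 -0.71 ± 0.15, adjusted p = 0.233), as held for 0.599% of all genes. The B-cell genes had a median of -0.69 with 0 of 7 called. In the same comparison the lymph node stroma sum was 9.06 to 19.4 CPM in D + Q-treated and 12.1 to 34.1 CPM in untreated old bladders.

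Genes outside the 10 were ranked by how closely they followed CD3. Taking the mean log2(CPM + 0.1) of the 3 CD3 genes as a pattern, the most similar genes outside the 10 over all 32 bladders included Gimap3, Lat, H2-Q7 and Zap70 (Pearson r 0.96 to 0.97 among 15055 genes with a mean of at least 1 CPM). After subtraction of group means they were Ms4a4b, Gimap3, Ptpn7, H2-Q7 and Lck (r 0.85 to 0.88). Of the receptor and coreceptor genes Trbc2 (r = 0.97) and Trac (0.95) followed the CD3 pattern most closely over all bladders, then Trbc1 (0.91), Cd8a (0.85), Cd8b1 (0.85), Cd4 (0.84) and Trdc (0.59). After subtraction of group means Trac had r = 0.86 and Trbc2 0.85. The others were lower, at 0.74 for Cd8a, 0.73 for Trbc1, 0.71 for Cd8b1, 0.68 for Cd4 and 0.54 for Trdc. Cd79a, a B-cell gene, had r = 0.91 over all bladders and 0.40 after this subtraction. These are descriptions over libraries that share tissue and depth, and the groups differ in mean, so no p is given.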

How the data were processed

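RNA was sequenced from 32 whole bladders, 1 stranded total RNA library per bladder. The authors aligned reads with STAR 2.7.3 to mm10 and deposited raw counts per gene from Subread featureCounts. The strand setting and the treatment of reads with several placements were not given in the sources used here. The deposited log2 table was found to hold log2 of (count + 1) per gene length, scaled to sum to 100000 per bladder, and served only for the limma test, with its log undone and its values multiplied by 10 to the scale of TPM. Total counts per bladder are given above, and arise from 32285 genes.

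Counts were tested with edgeR 4.0.16 (quasi-likelihood, TMM, its default filter on low counts) in R 4.3.3, each fit holding only its pair of groups, with Benjamini-Hochberg adjustment over all genes tested and a threshold of 0.05. All other TPM values were computed from the counts, without the added 1, and summed exon length. Ratios (log2, 0.01 added to TPM) and segment numbers were compared by two-sided exact permutation tests, 18 in all. The fits were tested on simulated data. Alternatives were DESeq2 1.42.0, other filters, all 6 groups in one fit, limma 3.58.1 on log2(TPM + 1), a replicate block, other offsets and limits, and leaving out each bladder.

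The members and gene lists were chosen with earlier results of these data known. Named from each list were the 3 genes with the smallest p between middle-aged and untreated old bladders, genes called against the list's median, and genes called within the old bladders. The 5 genes most like CD3 were taken in each ranking. Some genes that these rules pick are not reported here. Samples were grouped and numbered by their titles.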

Additional observations from a re-analysis of the deposited data

Results flagged for a closer look

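Among 96 groups of 4 to 6 bladders examined for 1 value far from the others by Dixon's criterion, 9 stood apart, and chance alone gives about 1 in 20. No explanation was tested for any of them.

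For CD3 genes, Cd3e was at 6.94 CPM in water-treated replicate 2, where the other 4 bladders lay between 3.60 and 4.55 CPM. Cd3g was at 4.94 CPM in D + Q-treated replicate 6, below the 7.03 to 7.90 CPM of the others. Trdc was at 4.79 CPM in middle-aged replicate 1, against 1.41 to 2.27 CPM, and at 10.0 CPM in vehicle-treated replicate 3, against 0.891 to 1.96 CPM.

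The log2 ratio of Cd4 to Cd8a had 1 bladder apart in each group of old mice. It was -0.949 in untreated old replicate 5 (others 1.11 to 2.04), 0.858 in water-treated replicate 2 (others 1.60 to 1.72), 4.28 in vehicle-treated replicate 1 (others 1.37 to 1.74) and 5.00 in D + Q-treated replicate 4 (others 0.726 to 2.22). The vehicle-treated and D + Q-treated values come from bladders with 7 and 13 reads of Cd8a. The log2 ratio of Trdc to Trac was -0.642 in water-treated replicate 3, above the -2.62 to -2.16 of the other bladders.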

How the results depend on the processing

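The rise of 9 genes between middle-aged and untreated old bladders kept its count on leaving out any bladder and under every alternative run except a filter of 10 counts in every bladder, which gave 8 because Cd8b1, with as few as 6 reads, was then not tested. DESeq2 called 2 of the 10 genes between D + Q and no treatment, 2 between water-treated and untreated old, and 8 signaling genes and 1 lineage factor in the former, where edgeR called 0. All 6 groups in one fit gave 1618 of 18093 genes higher and 901 lower between middle-aged and old bladders. Of the lineage factors this fit called 7, against 11. The cause of these changes was not tested. The Cd3e to Ptprc ratio lost its call with 0.1 added to TPM (0.70) and with raw counts (0.76), and more than 3 counts per segment gave a difference of -7.67 between D + Q and no treatment, past the threshold. The other fold changes that turned sign were all uncalled in both settings: with limma, Trdc between vehicle-treated and untreated old bladders (-0.0464) and, between D + Q-treated and vehicle-treated, Cd3e (0.0525), Cd3g (0.14), Trac (0.0505) and Trdc (0.12), and with all 6 groups in one fit Cd3g there (0.000665).

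Groups shared replicate numbers. Deviations of bladders with the same number in their titles had correlations from -0.296 to 0.162, in no comparison all over 0.1. The number of pairs that correlated best within their own number was 3 of 5 for middle-aged against young. It was 3 of 5 for untreated old against middle-aged and 3 of 6 for untreated old against young. In every other comparison it was 0 or 1. Whether bladders with the same number belong together cannot be told from these values. The numbers in the column names of the count table differ from those of the titles for 3 middle-aged, 2 vehicle-treated and 1 water-treated bladders. By these, chosen after seeing the data, correlations ran from -0.296 to 0.219, again in no comparison all over 0.1, and a block on them left the number of the 10 genes called in each of the 8 comparisons as it was. With the replicate block by titles, signs turned between young and middle-aged for Cd4 (0.00999), Cd8a (0.0975) and Trbc1 (0.0841), for Trdc with vehicle against untreated old (-0.36), for D + Q against vehicle in Cd3e (0.27), Cd3g (0.30), Cd4 (0.10), Cd8b1 (0.1), Trac (0.23) and Trdc (0.34), and against water in Cd3d (0.0203). Under this block the paired exact test with 5 or 6 pairs cannot pass after adjustment: Cd4 to Cd8a gave -1.83 and -1.81 against middle-aged and young, Trdc to Trac -2.49, Cd3e to Ptprc 0.81 and segments 11.20 (adjusted p = 0.178, and 0.321 for Cd3e to Ptprc).

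Leaving out 1 bladder gave 0 to 1 genes called between water-treated and untreated old. The 1 call came without water-treated replicate 2, where 106 of 17356 genes were called higher and 93 lower. Ranges that crossed 0 were, between young and middle-aged, Cd4 -0.15 to 0.00908, Cd8a -0.45 to 0.00557, Trac -0.22 to 0.0401, Trbc1 -0.19 to 0.0787 and the Cd4 to Cd8a ratio -0.24 to 0.26; Trdc with vehicle against untreated old -0.87 to 0.74. Between D + Q and vehicle they were Cd3d -0.17 to 0.64, Cd3e -0.35 to 0.36, Cd3g -0.24 to 0.57, Cd4 -0.54 to 0.33, Cd8a -0.81 to 0.43, Cd8b1 -0.96 to 0.34, Trac -0.53 to 0.26, Trbc1 -0.22 to 0.63, Trbc2 -0.18 to 0.61, Trdc -0.59 to 1.03 and the Cd4 to Cd8a ratio -0.74 to 0.54. Between D + Q and water they were Cd3d -0.22 to 0.17, Cd3e -0.00371 to 0.26, Cd3g -0.0607 to 0.23, Cd4 -0.26 to 0.00344, Cd8b1 -1.27 to 0.10, Trbc1 -0.0777 to 0.38, Trbc2 -0.0771 to 0.21 and the Cd4 to Cd8a ratio -0.04 to 0.81. The Cd4 to Cd8a ratio with water against untreated old ran from -0.07 to 0.53. Cd8b1 to Cd8a ran from -0.10 to 0.24 (old against middle-aged) and -0.25 to 0.07 (D + Q against untreated old), Trbc2 to Trbc1 from -0.09 to 0.28 and -0.04 to 0.32, and Cd3e to Ptprc from 0.63 to 0.86 and -0.14 to 0.04. Levels resting on fewer than about 10 reads, as for Cd8b1 in young bladders, limit what can be read from young and middle-aged bladders.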
